A study of Mus musculus with 12 samples.

Results

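The 36 genes described here encode the enzymes of glycolysis and gluconeogenesis, the regulators of their committed steps, and the main glucose and lactate carriers. They were chosen by name, as the rows of the deposited count tables that carry these symbols, out of 24062 gene symbols in all. The question was which isozymes were used in the liver and in the tumor, in 2 mouse models and under 2 diets. Of the 36 genes, 35 passed the filter on low counts. The exception was Eno1 (alpha-enolase), which held 0 to 4 reads in every library, so that the major enolase could not be followed. How reads of Eno1 and of Eno1b, a near-identical gene, were divided is not known. Eno1b held 177 to 487 CPM (read counts scaled to a common library size with TMM factors) in the livers and 20.1 to 28.5 in the xenografts.

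Polyadenylated RNA from 12 mice was sequenced, 1 library per mouse, with 3 mice in each of 4 groups. The MYC-ON livers came from male FVB mice with the LAP-tTA and TRE-MYC transgenes, in which a liver promoter drives human MYC once doxycycline is withdrawn at birth. The control diet was fed to mice 101, 102 and 103. The No-Trp diet, free of tryptophan, was fed to mice 105, 107 and 108. The xenografts were HCC53N tumors, grown subcutaneously from a mouse liver cancer cell line in NOD SCID females, on the control diet (mice 40, 41 and 43) or the No-Trp diet (mice 35, 36 and 37). The labels give the tumor cells as p53 knockout with mutant NRAS and also as MYC-ON, whereas the study's methods name only the first 2 changes. All mice spent 21 days on their diet. Their age is given in the labels only for another comparison. A MYC-ON liver holds tumor and non-tumor tissue, and a xenograft holds host cells beside those of the single injected line. In such bulk samples, fewer cells of a type and less RNA per cell cannot be told apart. The xenograft and the liver also differ in strain, sex, site and host, which cannot be told apart from the model. Values below follow the order of the mice just given.

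Glycolysis splits glucose into pyruvate, and its steps are irreversible at hexokinase, phosphofructokinase and pyruvate kinase. The liver is known for isozymes with a low affinity or a hormone-controlled activity: the phosphofructokinase Pfkl, the pyruvate kinase Pklr and the glucose carrier Slc2a2 (GLUT2), beside Gckr, a nuclear regulatory protein of glucose phosphorylation. Proliferating and tumor cells commonly use Hk2, Aldoa, Pkm and Slc2a1 (GLUT1). The liver and kidney can also run the pathway backward and release glucose, by way of pyruvate carboxylase (Pcx), phosphoenolpyruvate carboxykinase (Pck1 in the cytosol, Pck2 in mitochondria), fructose-1,6-bisphosphatase (Fbp1) and glucose-6-phosphatase (G6pc).

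Between 14660963 and 26085349 reads per library were counted on genes. Levels are given in CPM within a gene, and as CPM per kilobase of exon (RPKM) between genes. Genes were called when the quasi-likelihood test of edgeR over all genes gave an adjusted p not above 0.05 and the log2 fold change reached 1 in size. The hepatocyte markers checked the labelled tissue. Their 12 genes summed to 18130.0, 54479 and 15804 CPM in the control livers and 75887, 150029 and 61645 in the No-Trp livers, control mouse 102 being the nearest to the No-Trp livers. The sums in the xenografts were 3472, 1532 and 1293 on the control diet and 2981, 2573 and 1295 on the No-Trp diet, with albumin at 74.8 to 344 CPM. The 6 cholangiocyte markers summed to 2944 to 10796 CPM against 87.1 to 168 in the livers, most of it Spp1 in the xenografts. Spp1, Krt19, Krt7 and Sox9 were higher in every xenograft than in every liver, whereas Epcam and Cftr overlapped. A resubmission mark is carried by 4 library names (101, 108, 41 and 43), and no xenograft on the No-Trp diet carries it. The file of mouse 40 is named in another pattern, and its group rests on its labels. Control liver 101 held 12.1% of its reads in Rn45s, a ribosomal RNA row, against 0.261% to 2.22% in the others. Exons of 13 members overlap another gene on the other strand and those of 3 (Pfkm, Pfkfb2 and Pkm) on the same strand, and 5 have named processed copies (Aldoa, Gapdh, Pgk1, Pgam1 and Ldha), whose reads the counting could have split.

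**Figure D1:**
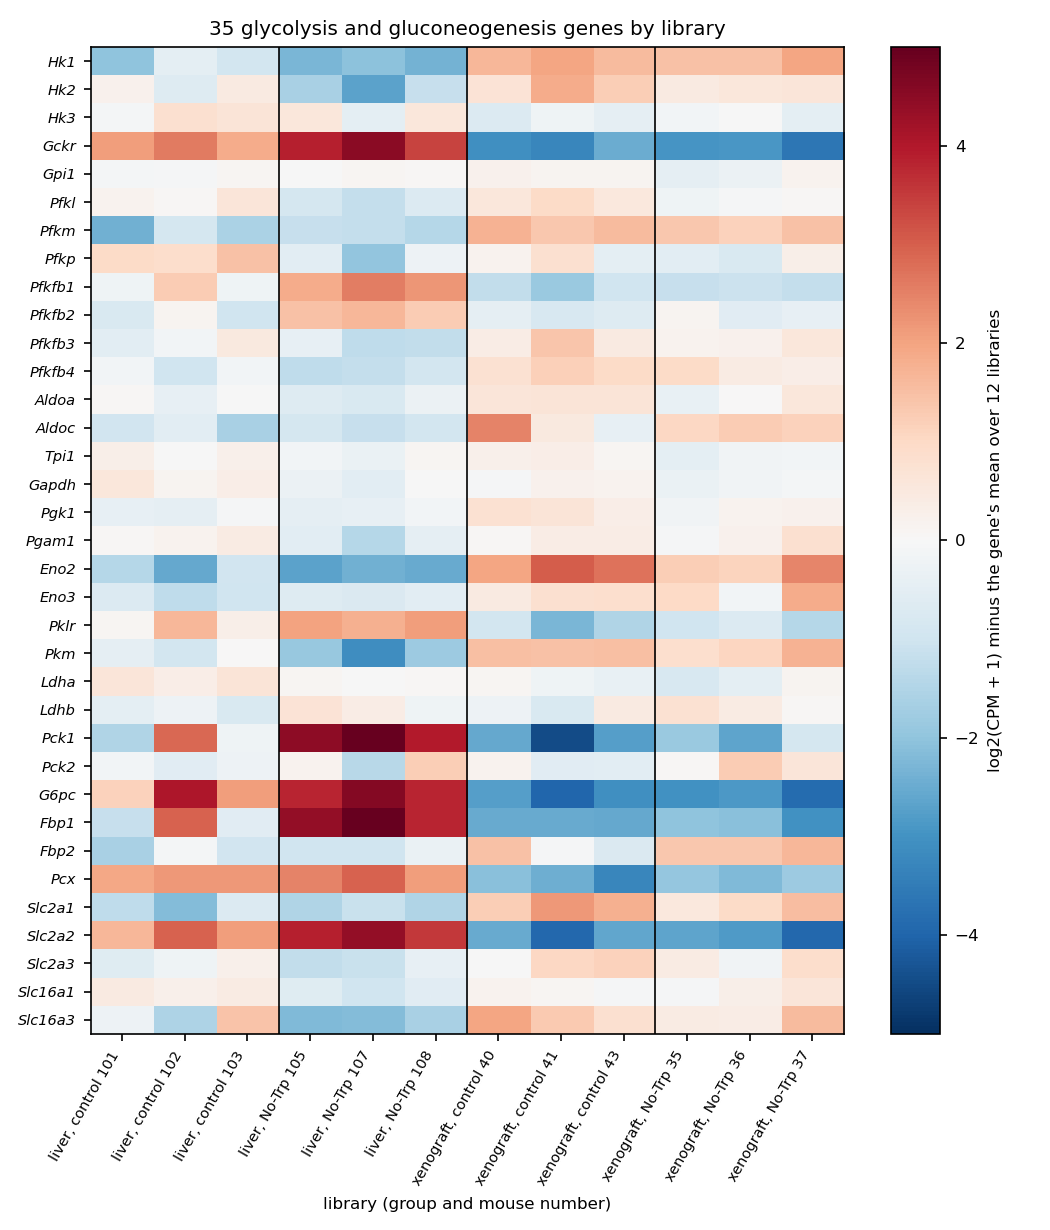
Each row is 1 of the 35 tested genes and each column 1 library. The color is log2(CPM + 1) minus the mean of that gene over the 12 libraries, with the color scale ending at 5 in either direction. Gckr, G6pc, Pcx and Slc2a2 are red in all livers and blue in all xenografts, and Hk1, Pfkm and Eno2 show the reverse. Pck1 and Fbp1 are red in the No-Trp livers and in control liver 102 alone among the controls.

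In the MYC-ON livers, 2 hexokinases, 2 phosphofructokinases, a pyruvate kinase and 2 lactate carriers fell on the No-Trp diet, whereas the regulatory protein Gckr, 2 enzymes of fructose-2,6-bisphosphate and the hepatocyte glucose carrier rose. Of the 35 tested genes, 7 fell: Hk1, Hk2, Pfkl, Pfkp, Pkm, Slc16a1 and Slc16a3. Another 4 rose: Gckr, Pfkfb1, Pfkfb2 and Slc2a2. Among all 14122 genes tested, 7.27% were called lower and 9.28% higher. The median log2 fold change was -0.11 over the 35 genes and -0.00309 over all genes. For 8 genes every No-Trp liver lay above every control liver and for 10 below, where 48.6% of all genes did not overlap in one direction or the other. Scaling by library totals instead of TMM moved the median of all genes to -0.30 and their calls from 1311 higher and 1026 lower to 732 higher and 1532 lower, while the 35 genes gave 4 higher and 7 lower, with Pgam1 called lower and Slc16a3 lost.

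At the entry to glycolysis, the hexokinases Hk2 and Hk1 fell. Hk2, an isozyme bound to mitochondria that many tumors express, stood at 64.7, 35.3 and 76.2 CPM in the control livers and at 17.3, 7.81 and 24.4 CPM in the No-Trp livers. The groups did not overlap, and Hk2 was 3.54-fold lower without Trp (log2 fold change -1.83 ± 0.46, adjusted p = 0.0317). Hk1 fell 2.41-fold, from 13.6, 41.5 and 30.02 CPM to 11.1, 13.2 and 10.6 CPM (log2 fold change -1.27 ± 0.39, adjusted p = 0.0496). Control mouse 101 held Hk1 close to the No-Trp livers, and the adjusted p was 0.0505 when the ribosomal row Rn45s was left out of the counts. Gckr moved the other way, from 90.1, 129 and 76.5 CPM to 316, 479 and 217 CPM, a 3.47-fold rise (log2 fold change 1.80 ± 0.34, adjusted p = 0.0196). The white-cell hexokinase Hk3 had a log2 fold change of -0.21 ± 0.40 (adjusted p = 0.72). Glucose-6-phosphate isomerase (Gpi1) lay between 535 and 611 CPM in all 6 livers.

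At the committed step, 2 of 3 phosphofructokinases fell and 2 of 4 enzymes that make and remove fructose-2,6-bisphosphate rose. Pfkl, the main liver phosphofructokinase, fell 2.28-fold, from 229.6, 212 and 304 CPM to 109, 88.7 and 126 CPM (log2 fold change -1.19 ± 0.21, adjusted p = 0.0196). The platelet isozyme Pfkp, which many proliferating cells express, went from 119, 112 and 169.9 CPM to 42.6, 15.0 and 50.8 CPM and fell 3.67-fold (log2 fold change -1.88 ± 0.44, adjusted p = 0.028). Pfkm, the muscle isozyme, was not called (log2 fold change 0.27 ± 0.39, adjusted p = 0.627). Fructose-2,6-bisphosphate is a strong activator of phosphofructokinase. Pfkfb1, the liver form, rose 3.64-fold, from 8.78, 26.5 and 8.74 CPM to 40.4, 65.2 and 51.98 CPM (log2 fold change 1.87 ± 0.47, adjusted p = 0.0324), and was 2.58 on the log2 scale without control mouse 102. Pfkfb2, the heart form, rose 3.97-fold, from 19.1, 36.6 and 16.1 CPM to 92.8, 106 and 82.05 CPM (log2 fold change 1.99 ± 0.32, adjusted p = 0.0171). Among the called genes of this comparison in the livers it had the smallest adjusted p together with Slc16a1. The inducible form Pfkfb3 was not called and lay at 32.8, 42.9 and 67.03 CPM in the control and 35.97, 19.1 and 19.9 CPM in the No-Trp livers (adjusted p = 0.0925). Pfkfb4, which hypoxia is known to induce, had a log2 fold change of -1.03 ± 0.40 (adjusted p = 0.0937).

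Between aldolase and enolase, none of Aldoa, Aldoc, Tpi1, Gapdh, Pgk1, Pgam1, Eno2 and Eno3 was called. Gapdh, often taken as a reference gene, read 2226, 1635 and 1854 CPM in the control livers and 1228, 1037 and 1463 CPM in the No-Trp livers, with no overlap and an adjusted p of 0.124. Pgam1, a phosphoglycerate mutase, passed the test but not the fold threshold (log2 fold change -0.94 ± 0.27, adjusted p = 0.0435). Eno2, the neuronal enolase, had the largest size of these estimates at a low level (log2 fold change -1.40 ± 0.53, adjusted p = 0.0898).

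At the end of glycolysis, Pkm, the pyruvate kinase gene of most tissues and tumors, fell 3.34-fold, from 946, 691 and 1304 CPM to 352, 152 and 369 CPM (log2 fold change -1.74 ± 0.41, adjusted p = 0.0273). Counts per gene cannot separate its M1 and M2 transcripts. Pklr, the liver pyruvate kinase, stood at 72.7, 221 and 83.4 CPM in the control and 282, 235 and 293 CPM in the No-Trp livers. These groups did not overlap, and the test was not passed (log2 fold change 1.12 ± 0.42, adjusted p = 0.0861). Of the lactate dehydrogenases, Ldha carried nearly all reads, with 2199, 1825 and 2244 CPM in the control and 1540.5, 1438 and 1491 CPM in the No-Trp livers (log2 fold change -0.47 ± 0.24, adjusted p = 0.173). Ldhb lay between 2.56 and 8.75 CPM (log2 fold change 1.01 ± 0.35, adjusted p = 0.0717).

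Among the carriers, 1 rose and 2 fell. Slc2a2, the low-affinity glucose carrier of hepatocytes, rose 3.19-fold, from 105, 255 and 140.1 CPM to 496, 696 and 383 CPM (log2 fold change 1.67 ± 0.38, adjusted p = 0.0263). Slc2a1 was not called, at 38.1, 19.7 and 57.6 CPM against 32.2, 42.2 and 31.9 CPM (adjusted p = 0.85), and neither was the neuronal carrier Slc2a3 (adjusted p = 0.149). Slc16a1 (MCT1), which carries lactate and pyruvate with a proton, fell 2.09-fold from 251, 222 and 247 CPM to 122, 93.3 and 125 CPM (log2 fold change -1.06 ± 0.17, adjusted p = 0.0171). Its 3 control livers lay within a narrow range above all No-Trp livers. Slc16a3 (MCT4), the lactate exporter of glycolytic cells, was at 13.6, 4.90 and 45.5 CPM in the control and 2.80, 2.89 and 4.58 CPM in the No-Trp livers (log2 fold change -2.64 ± 0.78, adjusted p = 0.0485). That difference leaned on mouse 103, without which its log2 fold change was -1.43, and it was not called with resubmission as a covariate (adjusted p = 0.0766).

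The promoters of Slc16a1 and Pfkfb2 are shown because these members changed in opposite directions with the smallest adjusted p, and both hold CACGTG, the E-box letters which MYC with MAX is known to bind. The windows are from RefSeq on GRCm38.p6, from 250 bases before to 50 bases after a transcript start, at chr3:104638414-104638713 on the plus strand for Slc16a1 and at chr1:130715772-130716071 on the minus strand for a start inside the Pfkfb2 gene, whose 2 other windows lack it. Capitals mark CACGTG, which reads the same on both strands.
Slc16a1: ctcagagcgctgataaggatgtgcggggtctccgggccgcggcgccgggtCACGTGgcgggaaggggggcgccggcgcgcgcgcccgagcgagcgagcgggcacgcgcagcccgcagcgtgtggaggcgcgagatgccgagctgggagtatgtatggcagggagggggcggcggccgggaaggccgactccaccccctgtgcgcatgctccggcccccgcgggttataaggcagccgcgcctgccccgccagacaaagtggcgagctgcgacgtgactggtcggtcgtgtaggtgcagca
Pfkfb2: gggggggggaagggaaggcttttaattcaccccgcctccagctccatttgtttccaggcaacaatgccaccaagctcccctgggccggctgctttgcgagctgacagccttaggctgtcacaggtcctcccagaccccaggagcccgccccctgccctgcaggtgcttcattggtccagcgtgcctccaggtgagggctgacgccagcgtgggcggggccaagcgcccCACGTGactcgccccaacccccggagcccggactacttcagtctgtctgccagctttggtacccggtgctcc
Windows were found for 35 of the 36 genes, all but Slc2a3. CACGTG was in 7 of their 54 windows (13.0%) and in 7.15% of all 32851 promoter windows. The other windows with it belong to Fbp2, Ldha, Pcx, Pfkfb3 and Pfkm. The shorter letters ACGTG or GCGTG, the core of the site of hypoxia-inducible factors, which overlap CACGTG, were in 37 of 54 windows (68.5%) on either strand against 43.8% of all windows. These matches are descriptions of letters in these windows only.

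Among the gluconeogenic genes, Pck1 and Fbp1 had the largest estimates of the 35 genes and standard errors above 1. Pck1 read 60.3, 1259 and 146 CPM in the control livers and 3824, 7989.6 and 2666 CPM in the No-Trp livers, a 10.1-fold difference that was not called (log2 fold change 3.33 ± 1.16, adjusted p = 0.0744). Fbp1 read 22.1, 393 and 33.7 CPM and 1065, 1934 and 712 CPM (log2 fold change 3.08 ± 1.14, adjusted p = 0.0871). For both genes every No-Trp liver lay above every control liver, and control mouse 102 lay between the other controls and the No-Trp group. G6pc overlapped between the diets, at 61.6, 468 and 121 CPM against 393, 689 and 400.3 CPM (adjusted p = 0.239), since mouse 102 exceeded 2 of the No-Trp livers. Pcx, at 685, 814 and 809.8 CPM and 991, 1387 and 766 CPM, Pck2 and the muscle bisphosphatase Fbp2 were not called (adjusted p = 0.243, 0.398 and 0.961). Without mouse 102, Pck1, Fbp1, G6pc and Pklr were all called higher, and 8 of the 35 genes rose and 8 fell, where the calls among all 14412 genes tested were 1959 higher and 1248 lower. Mouse 102 also held more albumin, 25586 CPM against 6255 and 4521 in the other controls.

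**Figure D2:**
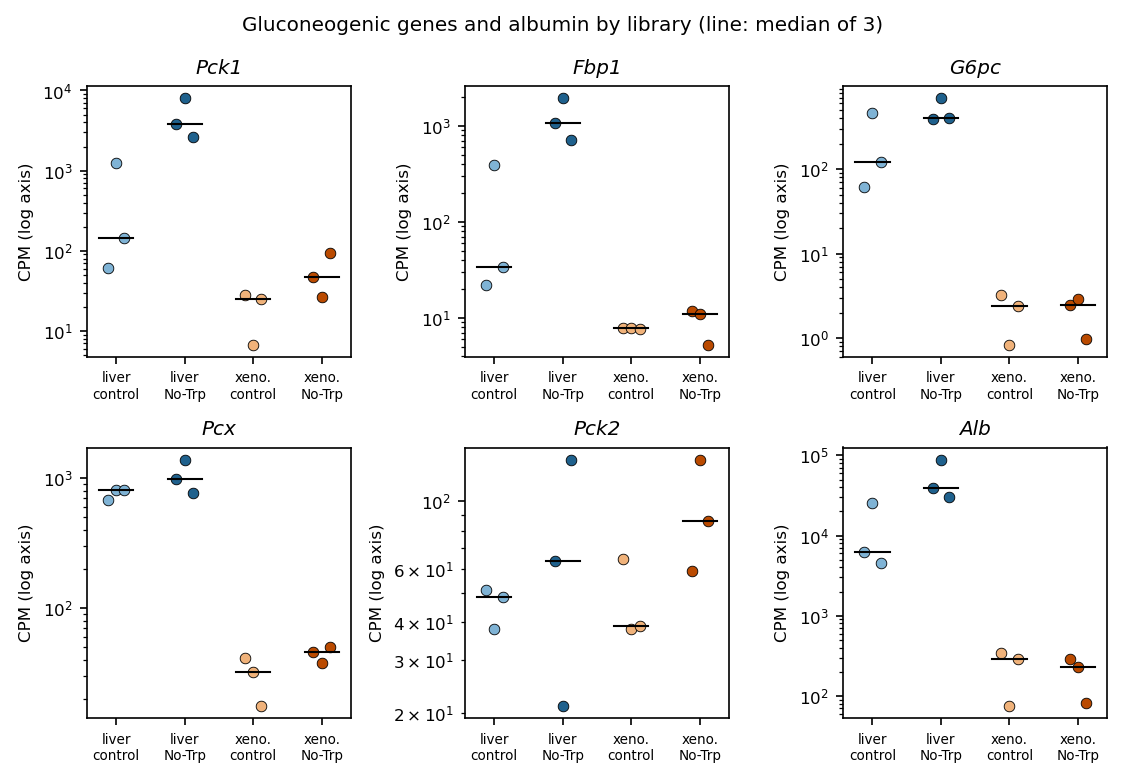
Each panel plots 1 gene, with CPM on a log axis, 1 point per library and a line at the median of 3. Pck1 and Fbp1 have 1 high control liver, mouse 102, below all No-Trp livers, and the pattern of albumin (Alb) is shown beside them. The medians of the xenografts lie below those of the livers of the same diet for all plotted genes, except for Pck2 without Trp, where they are 86.5 and 63.8 CPM.

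Other markers moved with these differences, and their part in them was not tested. All 8 proliferation genes fell in the No-Trp livers, where their sum was 477, 156 and 475 CPM against 1580.1, 1405 and 1578 in the controls. Of 12 hepatocyte markers, 4 rose (Tat, Apob, Ttr and Cps1) and 11 had a log2 fold change above 0. Of 6 tested erythroid markers 5 fell, with sums of 58.9, 587 and 388 CPM in the controls and 15.96, 20.4 and 25.7 without Trp, and the globin genes were at or near 0 in every library. The sum of 10 skeletal muscle markers ranged from 17.9 to 79.4 CPM in the livers, with none called.

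The calls rested on few mice. With any 1 of the 6 livers left out, the 11 called genes kept their direction, yet 0 genes were called in either direction without control mouse 103 or without No-Trp mouse 105. Without control mouse 101, 0 rose and 1 fell, and without No-Trp mouse 107, 2 rose and 4 fell. Leaving out mouse 103 also left 8 called genes among all 14240 tested. Within the unmarked libraries (2 control and 2 No-Trp livers), the log2 differences were -2.04 for Pkm, -2.15 for Hk2 and 2.03 for Pfkfb2. The single marked pair, 101 and 108, gave -1.36, -1.40 and 2.10. All 11 called genes had the same sign in both.

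**Figure D3:**
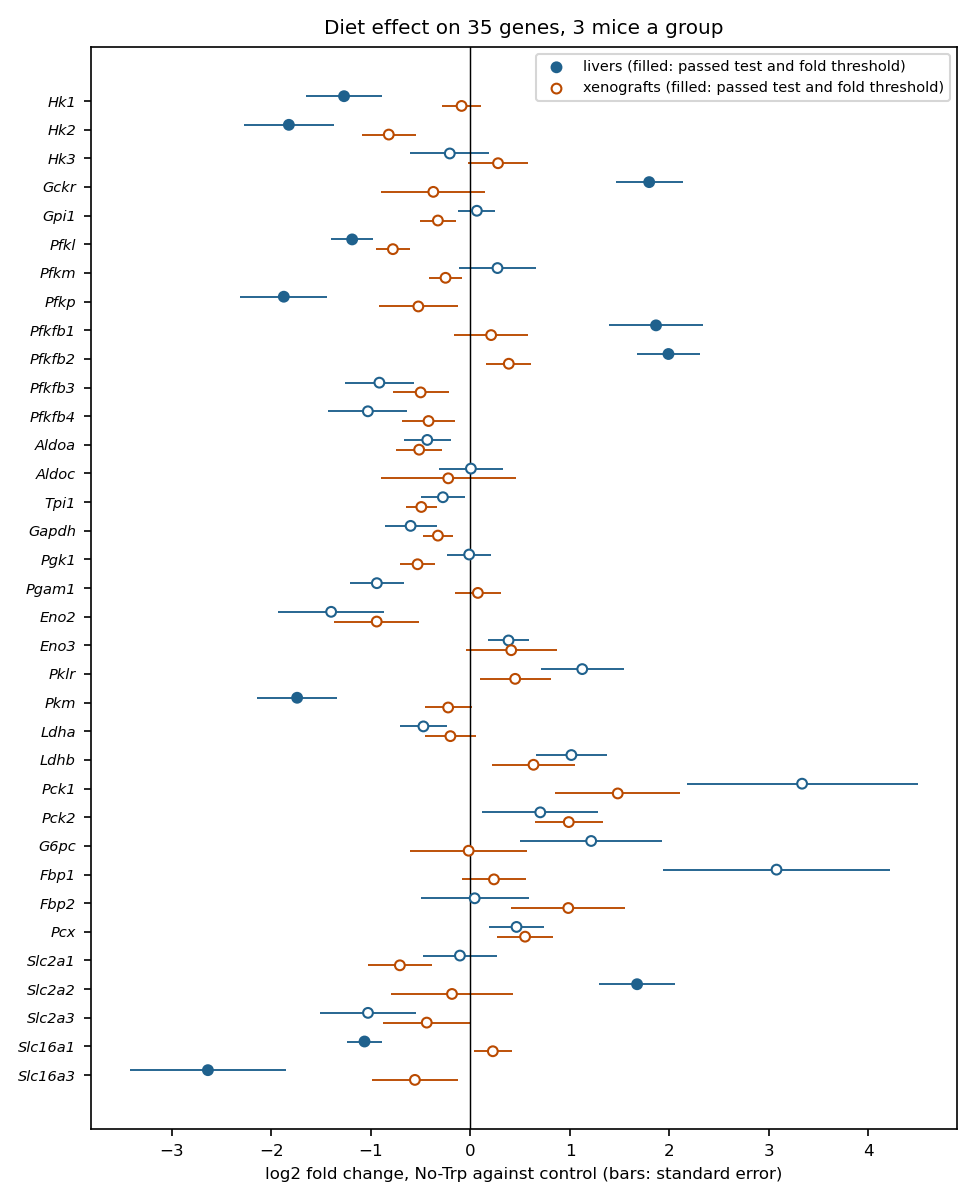
Points are log2 fold changes of No-Trp against control for the 35 genes, blue in the livers and orange in the xenografts, with bars of 1 standard error. Filled points passed both the test and the fold threshold: 11 in the livers, from -2.64 for Slc16a3 to 1.99 for Pfkfb2, and 0 in the xenografts.

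In the xenografts, no glycolytic or gluconeogenic gene was called between the diets. Among all 14704 genes tested, 0.245% were called higher and 0.116% lower. At an unadjusted p below 0.05, 5 of the 35 genes passed (Hk2, Pfkl, Tpi1 and Pgk1 lower, Pck2 higher), against 16.9% of all genes, and DESeq2 called 0 as well. The median log2 fold change was -0.22 over the 35 genes and -0.00449 over all genes. The groups of 6 genes did not overlap, all lower without Trp, against 22.5% of all genes whose groups did not overlap in either direction. They were Hk2, Pfkl, Aldoa, Tpi1, Gapdh and Pgk1. Library totals moved the median of all genes to 0.106. Pfkl had the smallest adjusted p, at 303, 394 and 291 CPM on the control diet and 174, 194 and 212 CPM on the No-Trp diet (log2 fold change -0.78 ± 0.17, adjusted p = 0.0912). Hk2 read 89.2, 205 and 131 CPM and 76.5, 82.1 and 83.8 CPM (log2 fold change -0.82 ± 0.27, adjusted p = 0.198). Phosphoglycerate kinase (Pgk1), an ATP-making step, read 1402, 1280.2 and 1036 CPM and 722, 919 and 949 CPM (log2 fold change -0.53 ± 0.18, adjusted p = 0.197). Aldoa read 1292, 1343 and 1323 CPM and 668, 861 and 1255 CPM (log2 fold change -0.52 ± 0.23, adjusted p = 0.297), with mouse 37 close to the controls.

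Pkm, called in the livers, was at 3714, 3608 and 3718 CPM in the control xenografts and 2345, 2766 and 4391 CPM in the No-Trp xenografts (log2 fold change -0.22 ± 0.23, adjusted p = 0.67). Pck1 ranged from 6.78 to 93.8 CPM (log2 fold change 1.48 ± 0.63, adjusted p = 0.3). Adipocytes also express Pck1, and 5 of 8 adipocyte markers rose in the No-Trp xenografts, with a sum of 587, 433 and 939 CPM against 15.98, 73.7 and 18.2 in the controls. The skeletal muscle markers, of which 10 of 10 lay above 0 and none was called, summed to 56.6, 41.3 and 73.3 CPM against 2.89, 3.83 and 26.98. Fbp2 and Eno3, which muscle expresses, read 18.97, 5.94 and 3.41 CPM and 49.5, 62.97 and 64.2 CPM in the controls, and 17.3, 17.6 and 21.5 CPM and 72.8, 32.4 and 131 CPM without Trp. Of 14 genes of the hypoxia response, 12 lay below 0 and none was called, and their sum was 1238, 1319 and 1598 CPM without Trp against 1891, 2923 and 2193. The part of these cell types and of hypoxia in the values was not tested. Without control mouse 40, Fbp2 was called higher. That mouse is the only control without the mark of resubmission, so that no within-mark comparison has replicate controls.

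Between the models, Pck1, Fbp1, G6pc, Pcx, Gckr, Slc2a2, Pfkfb1 and Pklr were lower in the xenografts on both diets, and Hk1, Hk2, Pfkm, Pfkfb4, Aldoc, Eno2, Eno3, Pkm, Fbp2 and Slc2a1 were higher. On the control diet 10 of the 35 genes were higher and 9 lower, against 23.3% and 20.2% of all 15472 genes tested. Without Trp 15 were higher and 9 lower, against 24.5% and 19.1%. Of these, 10 were called higher and 8 lower on both diets. The share of all genes called on both diets was not computed, and both contrasts come from 1 fit over all 12 libraries. The median log2 fold change was 0.17 over the 35 genes on the control diet and 0.50 without Trp, where that of all genes was 0.147.

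Of the genes that were lower, G6pc had the largest fold on the control diet. G6pc, the last enzyme before free glucose, read 3.19, 0.837 and 2.38 CPM in the control xenografts and 2.47, 2.90 and 0.975 CPM without Trp, with no overlap with any liver. It was 103-fold lower than in the livers on the control diet (log2 fold change -6.68 ± 0.86, adjusted p = 4.80e-05) and 231-fold lower without Trp (log2 fold change -7.85 ± 0.89, adjusted p = 1.79e-05). Without control liver 102, the high control for this gene, the log2 fold change on the control diet was -5.48. Pcx, which makes oxaloacetate from pyruvate, read 41.03, 32.1 and 17.7 CPM and 45.8, 37.8 and 50.3 CPM in the xenografts. It was 25.4-fold lower on the control diet (log2 fold change -4.67 ± 0.33, adjusted p = 2.73e-07), and its log2 fold change without Trp was -4.55 ± 0.33.

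Fbp1 lay at 7.84, 7.86 and 7.61 CPM in the control xenografts and 11.6, 10.8 and 5.26 CPM without Trp, below all livers. It was 19.2-fold lower on the control diet (log2 fold change -4.26 ± 0.97, adjusted p = 0.00279) and had a log2 fold change of -7.06 ± 1.10 without Trp. Pck1 was 24.6-fold lower on the control diet, at 28.2, 6.78 and 24.8 CPM (log2 fold change -4.62 ± 1.10, adjusted p = 0.00365), and its log2 fold change without Trp was -6.44 ± 1.19, with xenografts at 46.5, 26.7 and 93.8 CPM. Without control liver 102 the control-diet values of Fbp1 and Pck1 were -1.88 and -2.41, and both were still called. Pck1 without Trp was -7.04 without xenograft 37. Pck2, the mitochondrial form, was not called on either diet (log2 fold change 0.04 ± 0.52 and 0.35 ± 0.52).

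Sensing, uptake and pyruvate kinase genes of the hepatocyte were also lower in the xenografts. Gckr read 1.52, 1.20 and 2.80 CPM in the control xenografts and 1.74, 1.80 and 0.721 CPM in the No-Trp xenografts, a log2 fold change of -5.77 ± 0.46 on the control diet (adjusted p = 8.03e-07). Without Trp it was 234-fold lower (log2 fold change -7.87 ± 0.50, adjusted p = 1.37e-07), the largest fold of the 35 genes on that diet. Slc2a2 read 4.80, 1.20 and 4.51 CPM and 4.39, 3.67 and 1.23 CPM, with -5.59 ± 0.63 on the control diet (adjusted p = 1.64e-05). For both genes every liver lay above every xenograft. Pfkfb1 read 3.87, 2.15 and 4.69 CPM and 4.17, 4.37 and 3.90 CPM, with log2 fold changes of -2.04 ± 0.43 on the control diet and -3.66 ± 0.45 without Trp. Pklr read 35.98, 13.2 and 23.6 CPM and 33.6, 41.99 and 24.7 CPM, with -2.37 ± 0.45 and -3.01 ± 0.46. Without control liver 102 the control-diet values of Pfkfb1 and Pklr were -1.34 and -1.72, and both were still called.

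Pfkfb2 was called without Trp (log2 fold change -1.74 ± 0.29, adjusted p = 0.00029) and not on the control diet (log2 fold change -0.17 ± 0.29). Its xenografts read 24.2, 18.9 and 20.8 CPM on the control diet and 37.1, 22.3 and 24.7 CPM without Trp, within or just above the range of the control livers. Hk3 was lower on the control diet, at 4.12, 5.98 and 4.93 CPM against 6.70, 13.1 and 11.7 CPM (log2 fold change -1.06 ± 0.36, adjusted p = 0.0236), and was not called without Trp, at 6.38, 7.14 and 4.88 CPM against 11.2, 4.86 and 10.95 CPM. The call on Hk3 was lost in 4 of 12 repeats that left out 1 library, control livers 102 and 103 and xenograft 40 among them. The sum of 10 macrophage and neutrophil markers, cells known for Hk3, was 412, 605 and 391 CPM in the control xenografts and 619, 844 and 866 in the control livers, and its part in Hk3 was not tested.

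Of the genes that were higher in the xenografts, Eno2 had the largest fold on the control diet, 21.3 (log2 fold change 4.41 ± 0.53, adjusted p = 2.85e-05). It read 57.7, 122 and 97.5 CPM in the control xenografts and 34.2, 31.3 and 79.4 CPM without Trp, against 4.58, 1.58 and 6.71 CPM and 1.37, 1.84 and 1.63 CPM in the livers. Pfkm was 8.85-fold higher on the control diet (log2 fold change 3.14 ± 0.33, adjusted p = 6.08e-06), at 136, 104 and 124 CPM and, without Trp, 103, 90.4 and 114 CPM, where the No-Trp livers read 17.6, 17.03 and 14.5 CPM. Its control livers read 6.85, 21.6 and 12.8 CPM, and no liver overlapped a xenograft. Slc2a1, the carrier of basal glucose uptake, was 8.29-fold higher on the control diet, at 215, 422 and 319.9 CPM (log2 fold change 3.05 ± 0.40, adjusted p = 4.72e-05), and read 135, 179 and 274 CPM without Trp (log2 fold change 2.47 ± 0.39, adjusted p = 0.000203). Of 14 hypoxia genes, a response known to include Slc2a1 and Pfkfb4, 9 were called higher in the xenografts on each diet. On the control diet 0 were called lower, and without Trp 1 was. The part of the hypoxia genes in these levels was not tested.

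Hk1 was 6.98-fold higher on the control diet, at 187, 232 and 175 CPM (log2 fold change 2.80 ± 0.33, adjusted p = 1.85e-05), and 16.1-fold higher without Trp, at 165, 165 and 232 CPM (log2 fold change 4.01 ± 0.35, adjusted p = 1.53e-06). Pkm was 3.75-fold higher on the control diet (log2 fold change 1.91 ± 0.36, adjusted p = 0.000669) and 10.9-fold higher without Trp (log2 fold change 3.45 ± 0.38, adjusted p = 1.02e-05). Its 6 xenografts lay above all 6 livers. Hk2 had log2 fold changes of 1.27 ± 0.40 on the control diet and 2.30 ± 0.42 without Trp, and the first was lost without control liver 102 or xenograft 41.

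Pfkfb4, a form that makes fructose-2,6-bisphosphate under hypoxia, read 9.66, 13.4 and 11.3 and 11.4, 7.47 and 6.997 CPM in the xenografts and 4.82, 2.20 and 4.71 and 1.60, 1.78 and 2.33 CPM in the livers, on the control and the No-Trp diet (log2 fold change 1.54 ± 0.34, adjusted p = 0.00202 on the former). Eno3, the muscle enolase, read 49.5, 62.97 and 64.2 and 72.8, 32.4 and 131 CPM against 21.8, 14.3 and 17.2 and 22.7, 21.5 and 24.6 CPM (log2 fold change 1.73 ± 0.38, adjusted p = 0.00201 on the control diet). Neither gene overlapped between livers and xenografts. Aldoc, the brain aldolase, read 121, 29.6 and 15.5 and 44.2, 50.96 and 47.96 CPM against 10.3, 14.2 and 6.15 and 10.9, 8.92 and 10.5 CPM (log2 fold change 2.44 ± 0.61, adjusted p = 0.00465 on the control diet), where xenograft 40 was the high sample and 1.15 was the log2 fold change without it.

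Fbp2, a bisphosphatase of muscle, was the least stable of these calls. Its control xenografts read 18.97, 5.94 and 3.41 CPM and overlapped the control livers at 1.35, 5.69 and 2.67 CPM (log2 fold change 1.55 ± 0.61, adjusted p = 0.0453), with xenograft 40 again the high sample. Without it the log2 fold change was 0.54, and the call was lost in 9 of 12 repeats that left out 1 library. Without Trp, Fbp2 read 17.3, 17.6 and 21.5 CPM against 2.57, 2.64 and 4.66 CPM (log2 fold change 2.52 ± 0.63, adjusted p = 0.00451), with no overlap.

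A further 5 genes were higher in the xenografts without Trp and not called on the control diet. Slc16a3 had the largest fold, at 21.8, 21.2 and 50.9 CPM against 2.80, 2.89 and 4.58 CPM in the livers (log2 fold change 3.20 ± 0.72, adjusted p = 0.00249), and its control xenografts read 66.6, 41.6 and 29.5 CPM. Pfkfb3 read 53.9, 55.3 and 70.5 CPM without Trp and 61.8, 125 and 65.4 CPM on the control diet (log2 fold change 1.26 ± 0.35, adjusted p = 0.00787 without Trp). Slc2a3 read 5.62, 3.40 and 8.01 CPM against 1.09, 1.29 and 2.72 CPM in the livers without Trp (log2 fold change 1.75 ± 0.51, adjusted p = 0.0104), and 3.92, 8.97 and 10.05 against 2.22, 3.21 and 4.95 CPM on the control diet. Pgam1 read 201, 239 and 365 against 146, 77.5 and 151 CPM (log2 fold change 1.11 ± 0.27, adjusted p = 0.00364) and, on the control diet, 220.0, 269 and 272 against 215, 234 and 276 CPM. In these genes the difference between the 2 diets was not called by the interaction test, whereas that of Slc16a1 was. Slc16a1 was close to the fold threshold without Trp (log2 fold change 1.02 ± 0.18, adjusted p = 0.000431), fell under it with DESeq2 at a log2 fold change of 0.915, and was -0.29 on the control diet (adjusted p = 0.176). Pgam1 was lost without No-Trp liver 107 or xenograft 37, and Slc16a1 without either of these or control liver 102.

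At the remaining steps no gene passed both thresholds. Gpi1, Tpi1, Gapdh, Ldhb and Pck2 were not called on either diet, nor were Pfkl, Pfkp, Aldoa, Pgk1 and Ldha, of which Aldoa, Pgk1 and Ldha on the control diet, and Pfkl and Aldoa without Trp, passed the test with a log2 fold change under 1 in size. Ldha, the main lactate dehydrogenase gene by reads in both models, read 1564, 1241 and 1115 CPM in the control xenografts and 2199, 1825 and 2244 CPM in the control livers (log2 fold change -0.68 ± 0.24, adjusted p = 0.0268), the lower level being in the xenografts. Scaling by library totals moved the median of all genes to 0.173 on the control diet and 0.678 without Trp, and the calls among all genes without Trp from 3796 higher and 2959 lower to 5797 higher and 2024 lower. On the 35 genes it then called 11 higher and 8 lower on the control diet and 17 higher and 9 lower without Trp. Of 8 proliferation genes, 5 were lower in the xenografts on the control diet and 8 were higher without Trp, and their part in these values was not tested.

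Ratios of reads per kilobase between isozymes of the same step, or enzymes of opposing steps, set the genes against each other within a library, which leaves out library scaling. Of 15 ratios, the 2 with Eno1 could not be formed, and the other 13 were compared by an exact permutation test (two-sided, labels of the models exchanged within each diet, 400 arrangements, smallest possible p = 0.005). With the Benjamini-Hochberg adjustment over the 13 ratios, 12 differed between livers and xenografts at 0.05, and the 6 livers and 6 xenografts did not overlap for 7 of the 13. How many other pairs of genes would differ in this way was not computed, so these counts are not particular to isozymes. For single genes on the control diet, 23.3% of all were called higher in the xenografts and 20.2% lower.

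The ratio of the glucose carriers Slc2a1 to Slc2a2 lay below 1 in all livers, at 0.597, 0.127 and 0.675 and 0.107, 0.0996 and 0.137, and at 73.2, 569.5 and 116 and 50.5, 79.7 and 360.0 in the xenografts (log2 difference 9.40). The exact permutation test gave an adjusted p of 0.00929, from the smallest p that the design allows. Pkm to Pklr was 8.41, 2.02 and 10.1 in the control livers, where Pkm was the larger, and 0.808, 0.417 and 0.815 in the No-Trp livers. Which gene was the larger without Trp depends on the exon length used, here 5001 bases for Pkm and 3236 for Pklr. Their longest transcripts hold 2432 and 2902 bases. Undivided by length, Pkm was the larger in mice 105 and 108, at 352 and 369 CPM against 282 and 293. In mouse 107 Pklr was the larger, at 235 CPM against 152. In the xenografts the ratio was 66.8, 176 and 102 and 45.2, 42.6 and 115 (log2 difference 5.40, exact permutation, adjusted p = 0.00929).

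**Figure D4:**
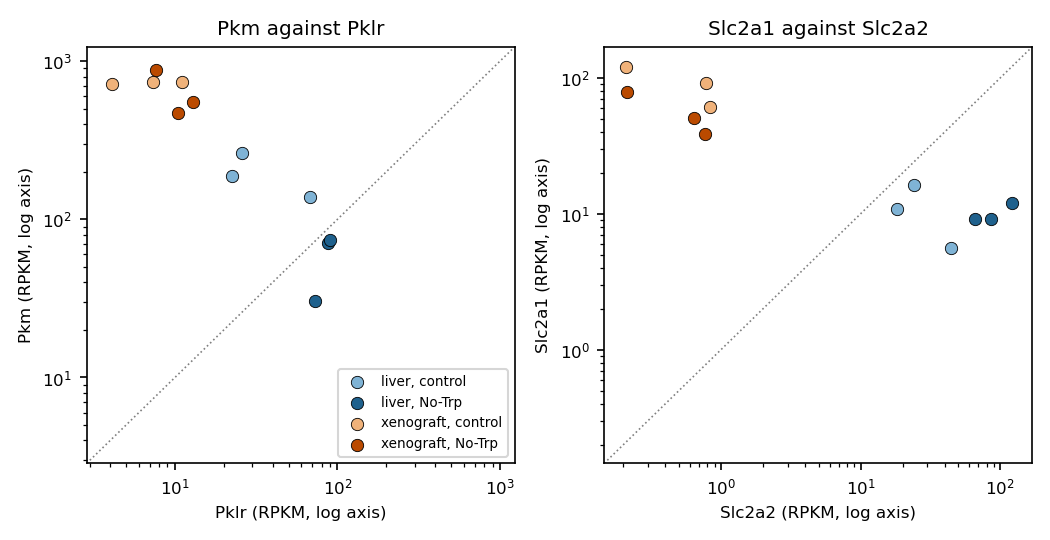
Each panel plots the RPKM of a gene common in tumors against that of its liver counterpart on log axes, 1 point per library, with a dotted line where the levels are equal. Xenografts lie above the line in both panels. Livers lie below it for Slc2a1 with Slc2a2, and for Pkm with Pklr only the No-Trp livers do. The latter depends on the exon length used, since in CPM, undivided by length, Pkm exceeded Pklr in No-Trp livers 105 and 108.

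Ratios across opposing steps followed the gluconeogenic genes. G6pc to Hk2 was 2.35, 32.7 and 3.91 in the control livers, 56.1, 217 and 40.5 in the No-Trp livers and 0.0104 to 0.0890 in the xenografts. Fbp1 to Pfkl was 0.379, 7.25 and 0.435 and 38.2, 85.4 and 22.1 in the livers and 0.0785 to 0.263 in the xenografts. Mouse 102 held the high value among the control livers in both. Pfkm to Pfkl was 0.0598 to 0.384 in the livers and 0.529 to 1.19 in the xenografts. Pfkfb3 to Pfkfb1, Pck2 to Pck1, Aldoc to Aldoa and Slc16a3 to Slc16a1 were higher in the xenografts as well (log2 differences 3.82, 5.42, 1.41 and 1.98). The call on Aldoc to Aldoa was lost without control liver 101 (adjusted p = 0.0532, exact permutation) or 103 (adjusted p = 0.0704, exact permutation). Hk2 to Hk1 and Slc2a3 to Slc2a1 went the other way and were lower in the xenografts (log2 differences -1.62 and -1.35, adjusted p = 0.0144 and 0.0236, exact permutation). Pfkp to Pfkl was lower too (-0.80, adjusted p = 0.0488, exact permutation), and was lost in 8 of 12 repeats that left out 1 library. Ldhb to Ldha, 0.00242 to 0.0235 in the 12 libraries, was the ratio not called (log2 difference 0.81, p = 0.0700, exact permutation).

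Between diets, 3 mice against 3 allow no p below 0.1 in the exact permutation test, so that no ratio could pass 0.05. In the livers, 7 of the 13 ratios did not overlap between diets. Those of Pkm to Pklr, Pfkfb3 to Pfkfb1 and Pfkp to Pfkl were lower without Trp, with log2 differences of -3.10, -2.95 and -0.84. G6pc to Hk2, Fbp1 to Pfkl, Pfkm to Pfkl and Ldhb to Ldha were higher (3.56, 5.29, 1.60 and 1.43). In the xenografts 1 of the 13 did not overlap, Pfkm to Pfkl (0.52). For single genes, 48.6% of all genes in the livers and 22.5% in the xenografts did not overlap between diets.

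**Figure D5:**
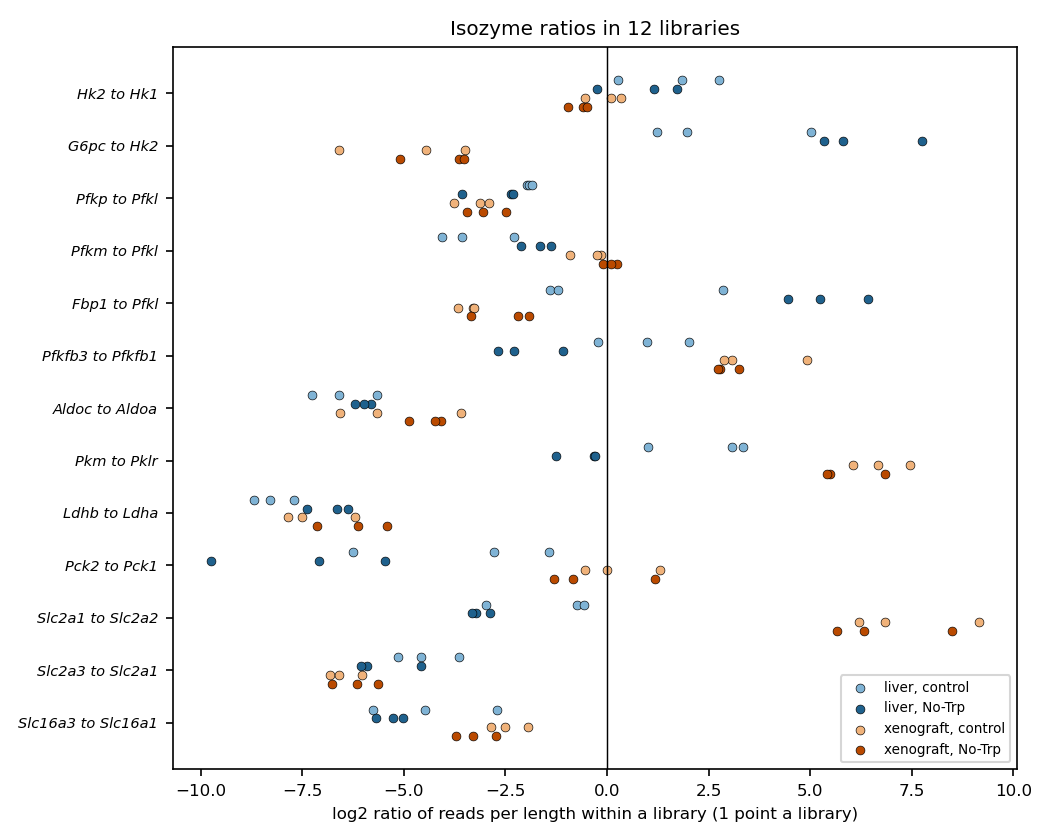
Points are log2 ratios of reads per length between the named genes within 1 library, with 3 libraries in each of the 4 groups. Xenografts lie to the right of the livers for Pkm to Pklr and Slc2a1 to Slc2a2, and to the left for G6pc to Hk2.

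The diet response differed between the models for 3 of the 35 genes, Gckr, Pfkfb2 and Slc16a1, at an adjusted p of at most 0.05 for the interaction in a fit over all 12 libraries. Among all 15472 genes 15.6% passed it. For Gckr the log2 fold change by diet was 1.80 ± 0.34 in the livers and -0.37 ± 0.52 in the xenografts, a difference of -2.10 ± 0.57 (adjusted p = 0.0318). Its level in the xenografts rested on 17 to 54 reads. Pfkfb2 was 1.99 ± 0.32 in the livers and 0.39 ± 0.22 in the xenografts, a difference of -1.57 ± 0.41 (adjusted p = 0.0262). Slc16a1 was -1.06 ± 0.17 and 0.22 ± 0.19, a difference of 1.31 ± 0.25 (adjusted p = 0.0105), with 212, 199 and 177 CPM in the control and 179.6, 231 and 280.2 CPM in the No-Trp xenografts. It passed with every library left out in turn, whereas Gckr and Pfkfb2 each passed in 6 of 12 such repeats. Pkm did not pass it (log2 fold change 1.54 ± 0.49, adjusted p = 0.0543), nor did Pgam1, Pfkfb1 and Hk1 (adjusted p = 0.0807, 0.0834 and 0.0835). Differences that were not called here, such as that of Hk2 (1.03 ± 0.57), are not shown to be equal in the models.

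The other genes of these pathways, 91 in 8 lists chosen by function, were read in the same fits. Of 8 tested further glycolytic isozymes, 1 fell in the No-Trp livers, the hexokinase-like Hkdc1 (log2 fold change -1.60 ± 0.44, adjusted p = 0.0394). In the xenografts Bpgm, which makes 2,3-bisphosphoglycerate, fell from 159.5, 147 and 174 CPM to 89.5, 77.1 and 57.97 CPM (log2 fold change -1.11 ± 0.18, adjusted p = 0.0487), and it was the sole gene of the 8 lists called there by diet. Against the livers on the control diet, 2 of the 8 isozymes were higher and 1 was lower, Eno1b (-4.20 ± 0.25). How its reads were divided with those of Eno1 is not known, as said above.

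Of 13 genes of pyruvate entry into mitochondria, 4 rose and 1 fell in the No-Trp livers. Pdk4 and Pdk2, kinases that switch off pyruvate dehydrogenase, rose (log2 fold change 3.23 ± 0.76, adjusted p = 0.0291 and log2 fold change 2.54 ± 0.65, adjusted p = 0.0344), and so did Mpc1, a subunit of the mitochondrial pyruvate carrier (log2 fold change 1.89 ± 0.29, adjusted p = 0.0163), and the phosphatase Pdp2, which has the opposite action on the dehydrogenase (log2 fold change 1.56 ± 0.25, adjusted p = 0.0171). Pdk4 read 4.15, 15.9 and 31.8 CPM in the controls and 79.8, 161 and 243 CPM without Trp. The kinases did not all rise. Pdk3 was lower in the No-Trp livers, at 1.89, 1.54 and 1.63 CPM against 4.24, 5.13 and 3.95 CPM in the controls. Pdk1 overlapped, at 114, 99.3 and 88.9 CPM without Trp and 107, 112 and 126 CPM in the controls. Against the livers, 5 of the 13 were lower and 1 higher in the control xenografts, led by Mpc2 (-3.00 ± 0.22) and Mpc1 (-2.28 ± 0.32). Of 8 other genes of glucose output, Got1 rose in the No-Trp livers (log2 fold change 1.90 ± 0.30, adjusted p = 0.0168), and 4 were lower and 1 higher in the control xenografts, among them the glucose-6-phosphate carrier Slc37a4 (-3.23 ± 0.21).

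Of 9 pentose phosphate genes, G6pdx, the entry enzyme, and Rpia fell in the No-Trp livers (log2 fold change -1.43 ± 0.28, adjusted p = 0.0216 and log2 fold change -1.12 ± 0.30, adjusted p = 0.0366), while H6pd rose (log2 fold change 1.61 ± 0.42, adjusted p = 0.0343). In glycogen metabolism 2 of 14 rose, Gys2, the liver glycogen synthase, and Ugp2 (log2 fold change 2.09 ± 0.58, adjusted p = 0.0407 and log2 fold change 2.03 ± 0.46, adjusted p = 0.0258), and 1 fell. In the control xenografts 5 of the 14 were lower and 1 higher, led by Gys2 (-5.54 ± 0.73). Of 8 genes of fructose and galactose entry, 2 rose and 1 fell by diet in the livers, and 7 were lower in the control xenografts, among them Sord (-4.48 ± 0.53), Khk, the fructokinase (-2.64 ± 0.41), and Aldh1a1, which oxidizes aldehydes (-4.33 ± 0.83). Of the other carriers, 3 of 9 rose by diet in the livers, Slc2a8, Slc2a9 and Slc16a7, and the fructose carrier Slc2a5 fell (log2 fold change -1.72 ± 0.39, adjusted p = 0.0264).

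Of 18 regulators, 4 rose in the No-Trp livers and none fell. They were Trib3 (log2 fold change 2.50 ± 0.65, adjusted p = 0.0357), Txnip (log2 fold change 1.56 ± 0.42, adjusted p = 0.0373), the coactivator Ppargc1a (log2 fold change 1.54 ± 0.36, adjusted p = 0.028) and the glucagon receptor Gcgr (log2 fold change 1.38 ± 0.23, adjusted p = 0.0175). In the control xenografts 7 of 18 were lower and none was higher. Gcgr (-6.40 ± 0.34) and Mlxipl, which encodes the carbohydrate response factor ChREBP (-5.63 ± 0.51), led them. The comparisons are not independent of each other, since each library enters a comparison of diets and one of models.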

How the data were processed

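Polyadenylated RNA was sequenced from 12 mice, and the authors deposited raw read counts per gene symbol, 1 table per mouse. According to the methods and the submitters' processing notes, reads were trimmed with Trim Galore, aligned to mm10 (GRCm38.p6) with STAR 2.7.2b and counted with HTSeq. The strand setting and the rule for overlapping genes are not given in the sources used here. Rows for uncounted reads, 24.7% to 39.4% of a library, were left out. Depth was 14660963 to 26085349 counted reads. The p-values of edgeR set a difference against the spread between mice, 3 per group, with that spread moderated over genes.

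The deposited counts were scaled by TMM, filtered with filterByExpr, tested with the robust quasi-likelihood test of edgeR 4.0.16 (R 4.3.3) and adjusted over all genes by Benjamini-Hochberg. Diets were fitted on the 6 libraries of a model, and models and the interaction on all 12. The standard error is the log2 fold change divided by the square root of F. The biological coefficient of variation was 31.6% in the livers and 28.7% in the xenografts. Isozyme ratios were log2 ratios of reads per exon length with a prior of 0.5, compared by exact permutation. Some genes of the lists, and the ratios with them, are not reported here, and p-values were adjusted over the ratios that remain. The scripts were tested on simulated data. DESeq2 1.42.0, other scalings and filters, a resubmission covariate and leaving out each library were alternatives. The members, gene lists and alternatives were chosen with earlier results of these data known. Every called member was to be named with its value in each library, and of each other list at most 4 called genes, those with the largest fold change. The kinases Pdk1 and Pdk3 are given in addition, beside Pdk2 and Pdk4.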

Additional observations from a re-analysis of the deposited data

Results flagged for a closer look

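The diet response differed between the models by the interaction test of edgeR for 3 of the 35 tested genes, where 15.6% of all 15472 genes passed it. The log2 fold change in the xenografts minus that in the livers was -2.10 for Gckr, -1.57 for Pfkfb2 and 1.31 for Slc16a1. In each of them the change passed the test in the livers and not in the xenografts. Gckr and Pfkfb2 each passed the interaction test in 6 of 12 repeats that left out 1 library, and Slc16a1 in all 12. Groups of 3 mice were too small for the test for single samples far from the others.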

How the results depend on the processing

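No called result changed direction under the alternatives that were run. In the livers, DESeq2 called 8 genes higher instead of 4, adding Fbp1, Ldhb, Pck1 and Pklr, and for the interaction it called 6 instead of 3. With 1 library left out, the number of genes called ranged from 0 to 8 higher and from 0 to 8 lower in the livers, and from 0 to 1 higher in the xenografts, with 0 lower throughout. The interaction ranged from 1 (without control liver 103, No-Trp liver 107, control xenograft 40 or No-Trp xenograft 37) to 9 (without control liver 102). The ratios that differed between models ranged from 10 to 13. Those whose groups did not overlap between diets ranged from 7 to 12 in the livers, with 12 without control liver 102, and from 1 to 6 in the xenografts, with 6 without No-Trp xenograft 37. The cause of these changes was not tested. Among single genes, Slc16a3 in the livers was lost with library totals (adjusted p = 0.0502), with no filter on low counts (0.0758) and with the resubmission covariate (0.0766), and Pfkfb2 in the interaction was lost with library totals (0.0619). The calls on Hk1 in the livers, on Hk2, Hk3 and Fbp2 between models on the control diet, and on Slc16a1 between models without Trp were each lost in at least 1 setting other than leaving out a library. Library totals moved the median of all genes in the interaction to 0.41. No paired analysis was possible because the groups share no replicate numbers. Depth limits Gckr, G6pc and Slc2a2 in the xenografts, which lay at a few CPM or less.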
